A study of Mus musculus with 4 samples.

Results

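The p53 target genes described here are a list of 10 mouse symbols: Trp53, which encodes the transcription factor p53 itself, and the genes Cdkn1a, Mdm2, Ccng1, Phlda3, Sesn2, Gdf15, Trp53inp1, Zmat3 and Btg2, which p53 is known to induce. Their probe sets were found by symbol in the annotation of the array, and the symbols themselves were chosen with earlier results of these data known. The annotation used here assigned 16 probe sets to 8 of the 10 genes, of 18193 genes measured in all. Trp53 and Gdf15 were not analysed here, so the level of the p53 transcript is not part of the results. All of the 8 measured genes exceeded the floor for dim signals (44.3 units) on each of the 4 arrays at their brightest probe set.

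The samples were bone marrow-derived dendritic cells (BMDC), which are antigen-presenting cells grown from bone marrow of male C57BL/6 mice aged 6 to 8 weeks, in medium with 500 U/ml of GM-CSF for 7 days. In the irradiated coculture they were grown with 1D8, a tumour line from ovarian surface epithelium of the mouse, whose cells had received 50 Gy, and in the live coculture with 1D8 cells that had not been irradiated, the design giving 1 tumour cell to 5 BMDC. In the conditioned medium sample 25% of the volume was 1D8 supernatant with no tumour cells, and the control BMDC had neither. The labels give radiation for the 1D8 cells of the irradiated coculture only. All samples were sorted by flow cytometry for CD80, a costimulatory surface protein, and each condition was represented by 1 biological sample on 1 array. The labels used here do not give the length of the coculture, the time since irradiation or the number of mice behind a sample.

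The protein p53 is held at a low level in unstressed cells by Mdm2, a ubiquitin ligase that is itself a p53 target, and it is stabilised when DNA is broken, as after ionising radiation. It then induces genes that stop the cell cycle, such as Cdkn1a, genes of apoptosis and repair, genes of metabolism and its own inhibitors. Several of these genes also answer to other signals, Btg2 to growth factor and stress signalling and Sesn2 to amino acid stress.

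The 300-base window around an annotated start of Cdkn1a is shown because it holds the only match among the measured genes to a pair of adjacent p53 half-sites, and that of Sesn2 because it was the other gene at least 2-fold higher in both cocultures than in control BMDC. The windows span 250 bases before to 50 after the start, are taken from RefSeq on GRCm38.p6 and are printed 5′ to 3′ on the strand of the gene, Cdkn1a on the plus strand (chr17:29090729-29091028) and Sesn2 on the minus strand (chr4:132510407-132510706). Capitals mark the 20 bases of the match.
Cdkn1a: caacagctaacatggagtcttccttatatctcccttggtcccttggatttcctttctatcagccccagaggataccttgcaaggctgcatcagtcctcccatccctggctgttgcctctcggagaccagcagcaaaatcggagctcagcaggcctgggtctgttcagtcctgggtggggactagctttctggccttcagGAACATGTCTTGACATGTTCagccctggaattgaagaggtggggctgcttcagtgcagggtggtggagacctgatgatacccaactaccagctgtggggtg
Sesn2: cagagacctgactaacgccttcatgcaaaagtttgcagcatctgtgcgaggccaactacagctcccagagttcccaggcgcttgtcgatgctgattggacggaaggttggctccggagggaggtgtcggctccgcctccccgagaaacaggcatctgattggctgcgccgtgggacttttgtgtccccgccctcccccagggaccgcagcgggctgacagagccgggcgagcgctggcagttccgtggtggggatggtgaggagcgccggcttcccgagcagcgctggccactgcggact
The p53 consensus half-site of 10 bases, which reads the same on both strands, occurred in 8.36% of all 32851 windows. A pair of adjacent half-sites with at most 1 base off outside the cores occurred in 18 windows, 0.0548% of them, 1 of which was this window of Cdkn1a. Its match began 51 bases before the start of this window and contained an exact half-site of its own. A further exact half-site (GGACTAGCTT, chr17:29090906-29090915) stood 73 to 64 bases before the same start and is not in capitals. RefSeq windows were found for 6 of the 8 measured genes, 7 windows in all since Cdkn1a had 2. The other window of Cdkn1a (chr17:29093519-29093818), around a start farther downstream, held no half-site. Single half-sites stood in the windows of Mdm2 (GAACTTGCCT, on the minus strand of chr10:117710935-117710944) and Ccng1 (GGGCAAGCCT, on the minus strand of chr11:40755462-40755471), and the windows of Sesn2, Phlda3 and Btg2 held none. A match is a description of the letters in these windows only.

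Values below are MAS5 signals, the linear brightness that Affymetrix software gives to a probe set, on arrays that share a trimmed mean of 149.4 to 149.5. For ratios, signals under the floor were set to it, and a gene was counted as different when its signals were at least 2-fold apart. With 1 array per condition there is no replicate and no test, and higher and lower describe these 4 arrays only. As a scale for reading a ratio, the log2 ratio of irradiated over live coculture had an SD of 0.26 for 1 probe set. This was judged from the disagreement of probe sets of the same gene, over 2730 genes with a pair of probe sets above the floor. The difference between the 2 probe sets of a pair spreads wider than this SD. The same SD was 0.43 for irradiated coculture over control, 0.47 for live coculture over control and 0.42 for conditioned medium over control. It holds no spread between cultures.

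The control array had the lowest median signal, 38.7 against 45.3 to 46.8 on the other arrays. It also had the fewest genes above the floor, 58.8% against 61.8% to 62.5%. Degraded RNA raises the ratio of 3′ over 5′ signal of a message, which for Actb came to 1.12 in the irradiated coculture, 1.14 in the live coculture, 1.20 in conditioned medium and 1.30 in the control, so the control array stood apart slightly. Dendritic cell markers were present on every array, 13 of 13 above the floor in the irradiated coculture, 12 in the live coculture, 12 in conditioned medium and 13 in the control, but their summed signal was lower in the cocultures, at 15772.1 in the irradiated coculture, 14874 in the live coculture, 22563.3 in conditioned medium and 24829.9 in the control. Neutrophil markers summed to 4648.4 in the irradiated coculture, 3871.6 in the live coculture, 8458.7 in conditioned medium and 8488.3 in the control. Most of each sum came from Mmp8, with 3101.6 in the irradiated coculture, 2635.4 in the live coculture, 6901.5 in conditioned medium and 5677.4 in the control. The median log2 ratio of the 12 neutrophil genes to the control was -1.04 in the irradiated coculture, -1.06 in the live coculture and -0.28 in conditioned medium. Mast cell and basophil markers summed to 444.7 in the irradiated coculture, 345.1 in the live coculture, 950.1 in conditioned medium and 1461.4 in the control. The sums of these 3 lists were thus lower in both cocultures than in the control. Of the 13 dendritic cell genes, 4 were above the control in each coculture, among them Cd80. Macrophage and monocyte markers summed higher, to 30335.6 in the irradiated coculture, 26276 in the live coculture, 25183.1 in conditioned medium and 23902.1 in the control. In each coculture 4 of these 8 genes were above the control and 4 below it. The part of these cell types in the ratios to the control was not tested. Epithelial and mesothelial markers were also present in both cocultures, where 12 of 19 exceeded the floor, against 5 in conditioned medium and 3 in the control. Their summed signal was 4913 in the irradiated coculture, 3846 in the live coculture, 892.7 in conditioned medium and 546.3 in the control. Krt19, a keratin that defines epithelia, had signals of 767.4 in the irradiated coculture, 569.7 in the live coculture, 22.2 in conditioned medium and 8.6 in the control. The fibroblast and matrix markers summed to 9767.2 in the irradiated coculture, 8582.9 in the live coculture, 7910.3 in conditioned medium and 4724.2 in the control, most of it from Fn1, the fibronectin gene. Without Fn1 they summed to 1493.5 in the irradiated coculture, 1471.3 in the live coculture, 811.8 in conditioned medium and 889.8 in the control. No array of 1D8 cells alone was analysed here, so for each p53 target gene transcripts of BMDC and of tumour cells cannot be told apart. Fewer cells of a type and less RNA per cell cannot be told apart either.

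The comparison of irradiated with live coculture asked whether p53 target genes differed when the tumour cells had received 50 Gy. None of the 8 genes was 2-fold apart, against a background of 0.671% of all genes and 0.731% of the 9847 genes that exceeded the floor on every array. Cdkn1a, Mdm2 and Ccng1 had nearly the same signals in both cocultures, and Trp53inp1, Btg2, Sesn2 and Phlda3 were 1.34-fold to 1.81-fold higher in the irradiated coculture. The median log2 ratio of the 8 genes was 0.28, against 0.00 for all genes. At a 1.5-fold threshold 1 of the 8, Trp53inp1, was higher and none was lower, where 1.82% of all genes (2.1% of those that exceeded the floor on every array) were higher and 2.56% (3.17%) were lower. A count of 1 among 8 genes with a single array per condition gives no result about the list.

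Cdkn1a encodes p21, the inhibitor of cyclin-dependent kinases that carries much of the cell cycle arrest by p53. Its brightest probe set (1424638_at) had signals of 2075.6 in the irradiated coculture, 2085.5 in the live coculture, 1329.9 in conditioned medium and 1007.5 in the control. The cocultures were the highest arrays and lay within 1.01-fold of each other. Its other probe set (1421679_a_at) had signals of 387.6 in the irradiated coculture, 423.0 in the live coculture, 119.1 in conditioned medium and 127.4 in the control. Both probe sets thus gave the same order of cocultures above the other arrays, with log2 ratios of irradiated over live coculture of -0.01 and -0.13.

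Mdm2 and Ccng1, which feed back on p53, had similar signals in both cocultures. Mdm2, the ubiquitin ligase that degrades p53, had signals of 1622.5 in the irradiated coculture, 1632.2 in the live coculture, 1211.1 in conditioned medium and 1337.3 in the control at its brightest probe set (1423605_a_at). A second one (1427718_a_at) had 831.5 in the irradiated coculture, 953.3 in the live coculture, 556.4 in conditioned medium and 341.8 in the control. The third (1457929_at) was close to the floor, at 49.7 in the irradiated coculture and 50.8 in the live coculture, and under it at 40.0 in conditioned medium and 19.4 in the control. The cocultures were the 2 highest arrays at all 3 probe sets, and the log2 ratio of irradiated over live coculture lay between -0.20 and -0.01.

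Ccng1 encodes cyclin G1, which brings a phosphatase to Mdm2. Its brightest probe set (1420827_a_at) had signals of 1122.3 in the irradiated coculture, 1141.0 in the live coculture, 1683.2 in conditioned medium and 1365.1 in the control. The others had 870.6 (1450017_at) and 839.3 (1450016_at) in the irradiated coculture, 939.9 and 953.1 in the live coculture, 1061.5 and 1084.8 in conditioned medium, and 587.4 and 342.5 in the control. Conditioned medium gave the highest signal at all 3 probe sets. The log2 ratios of irradiated over live coculture were between -0.18 and -0.02, inside the 0.26 that probe sets of a gene usually differed by.

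Trp53inp1 encodes a stress-induced protein that promotes p53 activity and autophagy. Its brightest probe set (1416926_at) had signals of 437.3 in the irradiated coculture, 241.4 in the live coculture, 650.0 in conditioned medium and 396.0 in the control. The live coculture was the lowest array, and the irradiated coculture was 1.81-fold above it (log2 ratio 0.86). At the dimmer probe set (1416927_at) the signals were 101.9 in the irradiated coculture, 94.3 in the live coculture, 125.4 in conditioned medium and 55.4 in the control, a difference of 1.08-fold between the cocultures. The probe sets thus shared the direction between cocultures but not the size, and the mean of both gave a log2 ratio of 0.48.

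Sesn2 encodes a sestrin, a leucine sensor that restrains mTOR complex 1. Its signals were 314.4 in the irradiated coculture, 232.9 in the live coculture, 172.7 in conditioned medium and 98.9 in the control at the brightest probe set (1451599_at), so each condition stood above the next. The order was the same at the other probe set (1425139_at), with 200.5 in the irradiated coculture, 117.2 in the live coculture, 76.4 in conditioned medium and 61.4 in the control. The irradiated coculture was 1.35-fold higher than the live coculture at the first and 1.71-fold higher at the second.

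Btg2 encodes an antiproliferative protein that recruits the deadenylase which shortens mRNA tails. Its brightest probe set (1416250_at) had signals of 1281.7 in the irradiated coculture, 926.1 in the live coculture, 1089.3 in conditioned medium and 766.9 in the control. The other (1448272_at) had 664.9 in the irradiated coculture, 487.4 in the live coculture, 488.5 in conditioned medium and 343.3 in the control. The irradiated coculture was the highest array and the control the lowest at both, and irradiated over live coculture gave 1.38-fold and 1.36-fold, the closest agreement among the genes with several probe sets.

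Phlda3, whose protein restrains the kinase Akt, was measured by 1 probe set (1449002_at) with 363.9 in the irradiated coculture, 271.7 in the live coculture, 333.3 in conditioned medium and 305.6 in the control. The irradiated coculture was the highest array and the live coculture the lowest, 1.34-fold apart. Zmat3, an RNA-binding zinc finger protein, also had 1 probe set (1449353_at), with 168.8 in the irradiated coculture, 152.9 in the live coculture, 201.8 in conditioned medium and 162.0 in the control. All 4 signals of Zmat3 lay within a narrow range, and its log2 ratio of irradiated over live coculture was 0.14.

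**Figure D1:**
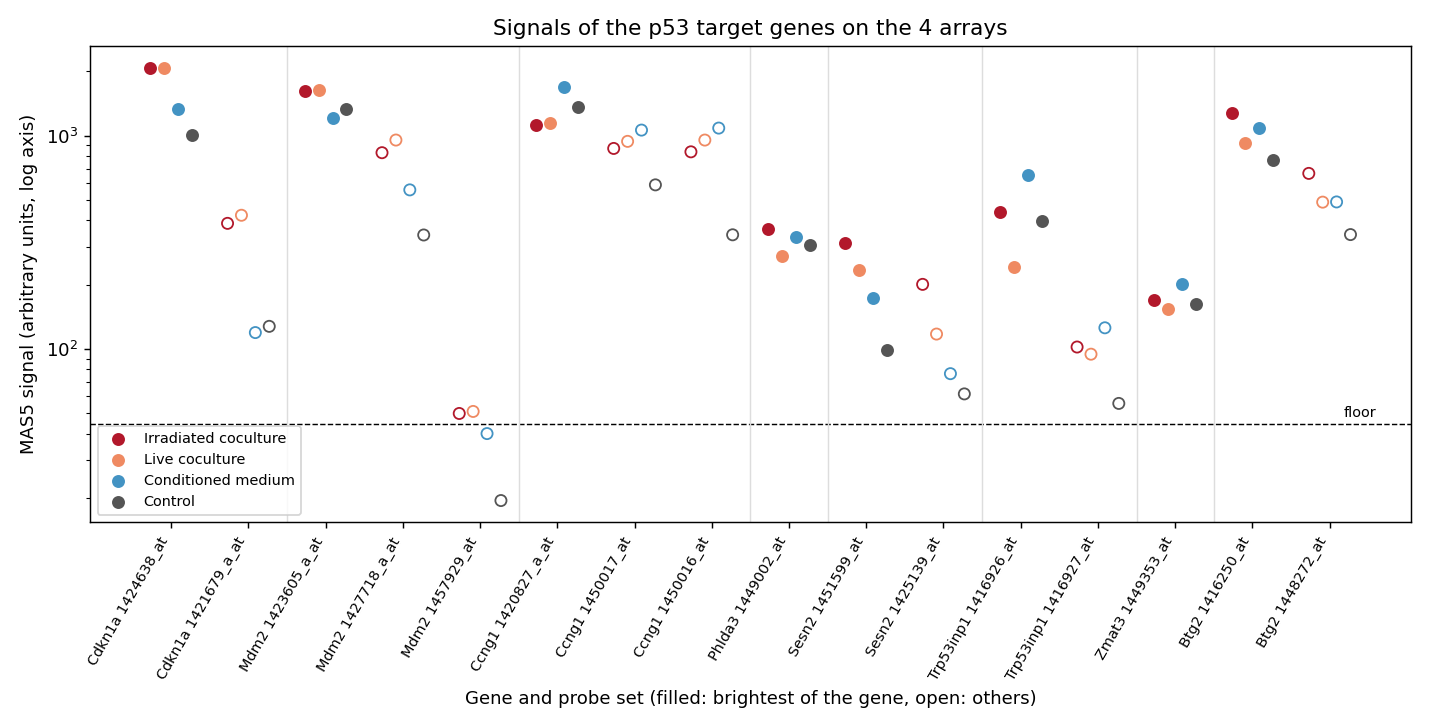
MAS5 signal (arbitrary units, log axis) of each of the 16 probe sets on the 4 arrays, filled points for the brightest probe set of a gene and open points for the others, with the floor of 44.3 as a dashed line. The irradiated and live coculture points of Cdkn1a, Mdm2 and Ccng1 lie side by side, while those of Sesn2, Btg2 and the brightest probe set of Trp53inp1 are separated.

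Across probe sets, the 8 of Cdkn1a, Mdm2 and Ccng1 all had ratios of irradiated over live coculture just below 0, and the 8 of the other genes all had ratios above 0. This split was seen in the values and was not tested, and under other floors, scalings or probe set averages the ratios of Cdkn1a, Mdm2 and Ccng1 fell on either side of 0, between -0.11 and 0.04. Of the brightest probe sets, those of Phlda3, Sesn2, Trp53inp1 and Btg2 differed between the cocultures by more than the SD of 0.26 for 1 probe set. Those of the other 4 differed by less. The summed signal of epithelial and mesothelial markers was also higher in the irradiated than in the live coculture (4913 against 3846), and its part in these ratios was not tested.

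**Figure D2:**
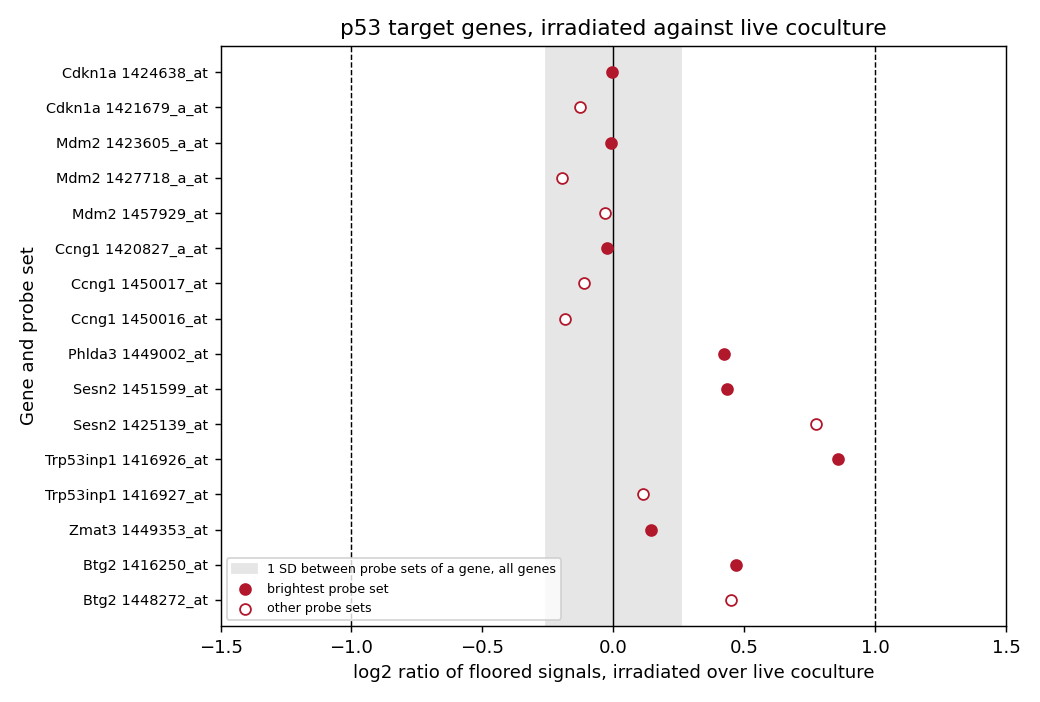
Log2 ratio of floored signals, irradiated over live coculture, for each probe set, filled for the brightest of a gene. The grey band is at 1 SD for 1 probe set (0.26), judged from the disagreement between probe sets of a gene, and dashed lines are at 2-fold. The points of Cdkn1a, Mdm2 and Ccng1 fall in the band at or below 0 (on either side of it under other scalings), and no point reaches a dashed line.

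Against control BMDC, Cdkn1a and Sesn2 were the 2 of 8 genes at least 2-fold higher in the irradiated coculture, and the same 2 were so in the live coculture. No gene of the 8 was 2-fold lower in either. Among all genes 3.48% were at least 2-fold higher in the irradiated coculture and 3.37% in the live coculture (4.85% and 4.78% of the 9847 genes that exceeded the floor on every array). Both comparisons use the same control array. Cdkn1a was 2.06-fold higher in the irradiated and 2.07-fold higher in the live coculture at its brightest probe set, and 3.04-fold and 3.32-fold higher at the other. Sesn2 was 3.18-fold higher in the irradiated and 2.35-fold higher in the live coculture, and 3.27-fold and 1.91-fold higher at its other probe set. After each array was centred on its median, Cdkn1a was under 2-fold in both cocultures and 1 gene was counted in each. With the floor raised to the 75th percentile, Sesn2 was under 2-fold in the live coculture (log2 ratio 0.58).

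For several of the other genes the probe sets differed in the size of the ratio to the control, and for Ccng1 in both cocultures and Trp53inp1 in the live coculture also in its direction. Mdm2 was 1.21-fold higher in the irradiated and 1.22-fold higher in the live coculture at the brightest probe set, and 2.43-fold and 2.79-fold higher at the second, so that its direction was the same at all of its probe sets. Ccng1 was 1.22-fold lower in the irradiated and 1.20-fold lower in the live coculture at its brightest probe set, but 1.48-fold and 1.60-fold higher at 1450017_at and 2.45-fold and 2.78-fold higher at 1450016_at. Trp53inp1 was 1.64-fold lower in the live coculture at one and 1.70-fold higher at the other, while in the irradiated coculture it was above the control at both (log2 ratios 0.14 and 0.88). These genes share the control array with its higher Actb ratio of 3′ over 5′ signal (1.30), and the part of RNA integrity in the disagreement was not tested. Btg2 was 1.67-fold higher in the irradiated and 1.21-fold higher in the live coculture, and Phlda3 and Zmat3 differed by less than 1.2-fold in both. Over all 16 probe sets, 6 were at least 2-fold higher in the irradiated coculture and 5 in the live coculture, and none was 2-fold lower. Among the 34945 probe sets of 1 gene, 4.17% were at least 2-fold higher in the irradiated coculture and 4.61% in the live coculture, and the 16 are not independent, since 14 share a gene with another.

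**Figure D3:**
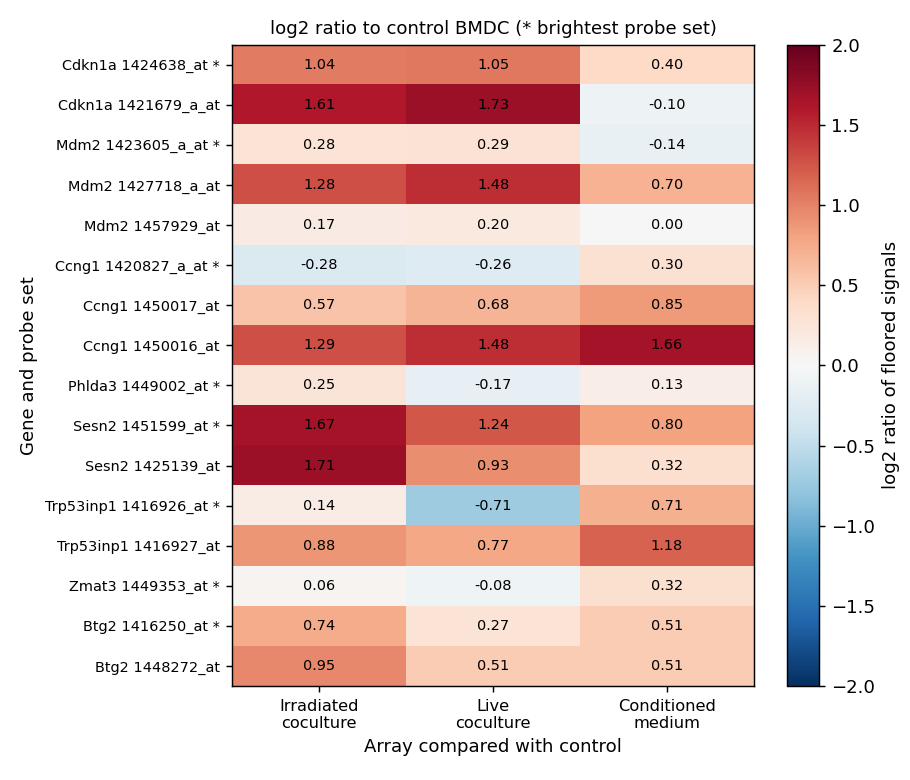
Log2 ratio of floored signals to control BMDC for each probe set (rows) on the 3 other arrays (columns), red for higher and blue for lower than the control, with the brightest probe set of each gene starred. Sesn2 and Cdkn1a are red in both cocultures at both of their probe sets, and the rows of Ccng1 and Trp53inp1 differ among their own probe sets.

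In conditioned medium, where no tumour cell was present, none of the 8 genes was 2-fold apart from the control at its brightest probe set, against 3.71% of all genes that were. Sesn2 was 1.75-fold higher, Trp53inp1 1.64-fold higher and Btg2 1.42-fold higher. Cdkn1a was 1.32-fold higher at one probe set and 1.07-fold lower at the other. At other probe sets Ccng1 was 3.17-fold and 1.81-fold higher and Trp53inp1 was 2.26-fold higher, so for both genes all probe sets were above the control in conditioned medium.

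Set against conditioned medium, none of the 8 genes was 2-fold apart in the irradiated coculture at its brightest probe set (background 3.19%), and 1 was 2-fold lower in the live coculture (background 1.14%). The 1 was Trp53inp1, 2.69-fold lower at its brightest probe set and 1.33-fold lower at the other. The dimmer probe set of Cdkn1a was 3.25-fold higher in the irradiated and 3.55-fold higher in the live coculture than in conditioned medium, and the brightest 1.56-fold and 1.57-fold. Sesn2 was 1.82-fold higher in the irradiated and 1.35-fold higher in the live coculture at its brightest probe set, and 2.62-fold and 1.53-fold at the other.

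The order of arrays therefore differed among the 8 genes. At the brightest probe sets, Cdkn1a and Mdm2 were highest in the cocultures, and Sesn2, Btg2 and Phlda3 were highest in the irradiated coculture. Ccng1, Trp53inp1 and Zmat3 were highest in conditioned medium. Nearest to Cdkn1a in its log2 ratios to the control on the 3 other arrays, by Euclidean distance among 9846 other genes above the floor, were Zfp668 (0.05), Pid1 (0.09), Ptges (0.10), Azin2 (0.11) and Tnfrsf22 (0.11). Of the other p53 target genes measured, Sesn2 was the closest to Cdkn1a at a distance of 0.77, the rank of 841 among the 9846. With 4 arrays such a likeness is a description only.

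The wider p53 pathway was read from lists chosen for their known roles. Of 66 other p53 target genes, 61 were measured, and between irradiated and live coculture 2 were at least 2-fold higher, 1 was lower and the median log2 ratio was 0.00. Among all genes 0.671% were 2-fold apart in either direction. The 2 higher target genes were metabolic genes. Ddit4, an inhibitor of mTOR complex 1 that hypoxia also induces, had signals of 1062.6 in the irradiated coculture, 432.2 in the live coculture, 281.4 in conditioned medium and 105.5 in the control (2.46-fold between the cocultures). Cpt1c, a carnitine palmitoyltransferase of the brain, had 115.0 in the irradiated and 54.1 in the live coculture (2.13-fold). The lower one was Pidd1, a death domain protein that activates caspase 2, with 55.6 in the irradiated and 120.1 in the live coculture (2.16-fold lower). Each of these 3 genes had 1 probe set, and Cpt1c and Pidd1 were near the floor.

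By role, no arrest gene of 11 was 2-fold apart between the cocultures (median log2 ratio 0.00), nor was any of 10 repair genes (-0.05) or 12 target genes of other roles (0.01). Among 16 apoptosis genes only Pidd1 was, at a median of -0.06. The genes that exceeded the floor on every array were 8 of the arrest, 9 of the repair, 10 of the other and 13 of the apoptosis genes. A gene under the floor in both cocultures has a ratio of 0 by construction. This held for Sfn and Rprm among the arrest genes and for Tnfrsf10b and Eda2r among the apoptosis genes. The 12 metabolic genes had a median of 0.25, with 9 above 0, as were 50.1% of the genes that exceeded the floor on every array. The 8 feedback regulators beside Mdm2 and Ccng1 had a median of -0.17, with 7 below 0. Among them Usp2, a deubiquitinase that stabilises Mdm2, was 2.40-fold lower in the irradiated than in the live coculture at its brightest probe set (58.2 in the irradiated against 139.4 in the live coculture), and 1.02-fold higher at its other, which was near the floor. The 22 upstream kinases and cofactors held no gene 2-fold apart at the floor used, with 18 below 0 at a median of -0.09. Of the genes that exceeded the floor on every array 49.9% were below 0, and these sign counts were not tested. Of 8 genes for inhibitors of cyclin-dependent kinases none was 2-fold apart between the cocultures at the floor used, and against the control Cdkn1a was 2-fold apart in both. At this floor no other was, but Cdkn1c, which encodes p57, had 21.2 in the irradiated coculture and 4.7 in the live coculture, both under the floor, against 69.0 in the control. With the floor at the 25th percentile Cdkn1c was 3.25-fold lower in the irradiated and at least 5.35-fold lower in the live coculture. Cdkn2a, also one of the upstream genes, was dim, with 7.1 in the irradiated coculture, 44.8 in the live coculture, 32.9 in conditioned medium and 2.4 in the control. At the 25th percentile floor its live coculture signal was at least 3.47-fold above both the irradiated coculture and the control.

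Compared with control BMDC, 5 of the 61 other target genes were at least 2-fold higher and 2 were lower in the irradiated coculture, and 3 were higher and 2 lower in the live coculture, with median log2 ratios of 0.04 and 0.18. Of all genes 3.48% were at least 2-fold higher in the irradiated and 3.37% in the live coculture (4.85% and 4.78% of those that exceeded the floor on every array). Counts this small, with 1 array per condition, give no result about the list. The widest difference among the 61 was that of Ddit4, 10.1-fold higher in the irradiated and 4.10-fold higher in the live coculture. Cpt1c was at least 2.60-fold higher in the irradiated coculture, and Pidd1 was 2.37-fold higher in the live coculture. Plk3, a stress-responsive polo-like kinase, was 2.13-fold higher in the irradiated and 2.39-fold higher in the live coculture. Perp, a membrane protein of apoptosis and of epithelial junctions, was at least 2.12-fold higher in the irradiated coculture. Tob1, an antiproliferative relative of Btg2, had 620.3 in the irradiated coculture, 380.1 in the live coculture and 272.3 in the control, 2.28-fold apart at the widest. Sesn1, the sestrin paralog of Sesn2, was in contrast below the control, 2.30-fold in the irradiated and 2.63-fold in the live coculture. Sco2, an assembly factor of cytochrome c oxidase, was 3.56-fold and 2.41-fold lower. Among the upstream genes, Brca1, of DNA repair, was 2.06-fold higher in the irradiated and 2.58-fold higher in the live coculture at its brightest probe set. It was 3.44-fold higher in conditioned medium. At its other probe sets the log2 ratio to the control lay between 0.00 and 1.11 in the irradiated and between 0.27 and 1.37 in the live coculture. Nbn, a subunit of the double-strand break sensor, was 2.23-fold lower in the irradiated and 1.25-fold lower in the live coculture.

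Genes of mitosis and the cell cycle, which p53 is known to lower through p21 and the DREAM repressor, were read at 29 measured members. At the brightest probe sets none of these genes was 2-fold apart between irradiated and live coculture. Their median log2 ratio was -0.38, and 27 had a ratio below 0, as did 49.9% of the genes that exceeded the floor on every array. At 1.5-fold 2 of the 29 were lower, where 2.56% of all genes were, Prc1 (402.9 in the irradiated against 670.9 in the live coculture) and Aurkb (222.4 in the irradiated against 361.8 in the live coculture), both named after their values were seen. Both cocultures were nonetheless mostly above the control for these genes, 24 of 29 in the irradiated and 27 of 29 in the live coculture, with medians of 0.28 and 0.59. Over the control, the kinesin gene Kif20a was 1.80-fold higher in the irradiated and 2.49-fold higher in the live coculture. The cytokinesis gene Ect2 was 1.97-fold and 2.35-fold higher, and the spindle checkpoint kinase Bub1 1.64-fold and 2.32-fold. Conditioned medium had a median of 0.70 over the control, with 28 of 29 above 0. Of the genes that exceeded the floor on every array, 46.1% were above the control in the irradiated coculture, 46.4% in the live coculture and 50.2% in conditioned medium. Cdkn1a did not differ between the cocultures by more than 1.1-fold at either probe set, and the part of p53 or p21 in these ratios was not tested.

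**Figure D4:**
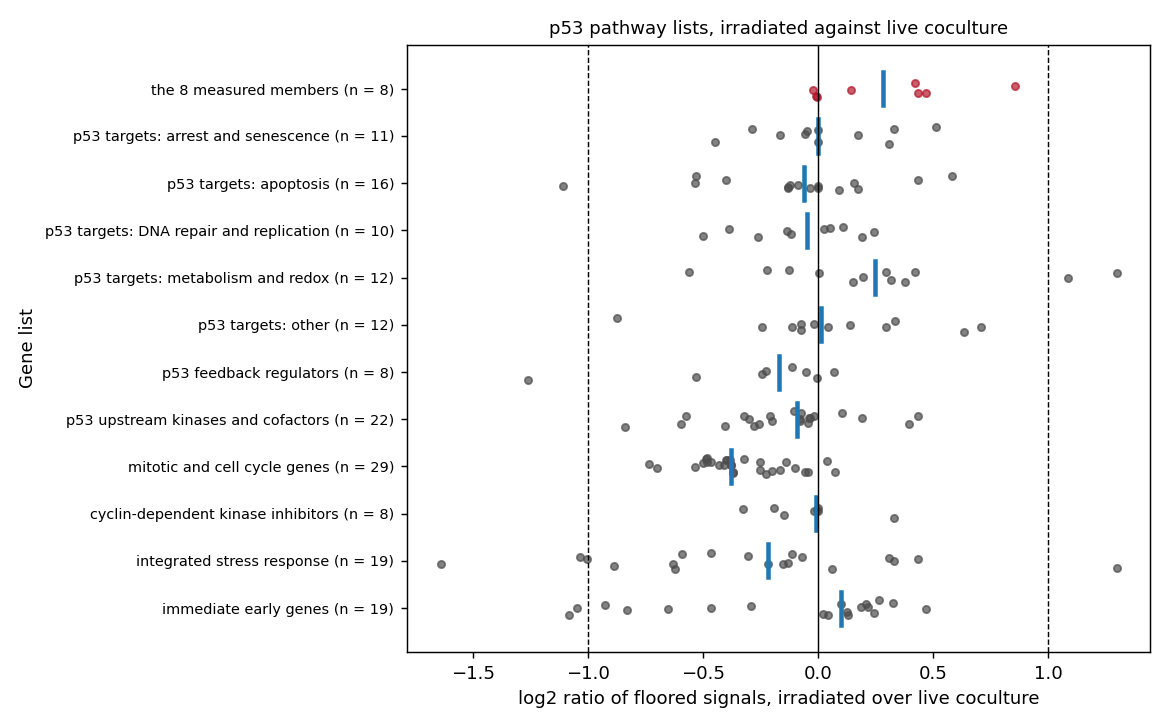
Log2 ratio of irradiated over live coculture for the brightest probe set of each gene in the pathway lists, with the 8 measured p53 target genes in red, list medians as blue bars and dashed lines at 2-fold. The median of the 8 genes is 0.28, and those of the other target lists lie between -0.06 and 0.25. That of the mitotic and cell cycle genes is -0.38, of the integrated stress response -0.22 and of the feedback regulators -0.17. No mitotic gene passes 2-fold.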

How the data were processed

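RNA of 4 sorted BMDC samples was hybridised to 4 Affymetrix arrays. The deposited values are 1 linear intensity per probe set, made by the authors with GCOS 1.4 and MAS5, per the submitters' processing notes. The scaling target is not given in the sources used here. Trimmed means were 149.4 to 149.5 on all arrays, and no further scaling was applied. MAS5 subtracts mismatch signal, so ratios of dim probe sets are noisy.

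Of 45101 probe sets, 64 controls were left out, and 34945 were assigned to 1 gene, 932 to several, and 9160 were not listed in the annotation used. Symbols were matched to RefSeq genes through Entrez identifiers for 34741. Each of 18193 genes was read at its brightest probe set (highest mean log2 signal), and all probe sets of the p53 target genes were kept. Signals under 44.3, the 50th percentile of all signals, were set to this floor before log2 ratios were taken (Python 3.11.15, pandas 2.3.3). The steps were tested on simulated data. Precision is limited by the number of arrays.

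The genes and the lists were chosen with earlier results of these data known. Named are all 10 listed genes, the genes of each list at least 2-fold apart between the cocultures, up to 4 more of a list with the largest ratio of a coculture to control, defining markers of cell types, and the 5 genes nearest to Cdkn1a. The alternatives were floors at the 25th and 75th percentile, quantile normalization, median centring, the mean over probe sets and a 1.5-fold threshold. The relaxed search for paired half-sites was chosen after an exact search.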

Additional observations from a re-analysis of the deposited data

How the results depend on the processing

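Of 240 log2 ratios, for 8 genes in 6 comparisons under 5 alternatives, 229 moved by less than the SD for 1 probe set and 11 by more. None of those at least 2-fold apart changed sign. The mean over probe sets moved 8, among them Trp53inp1 between the cocultures (0.48, against 0.86), and the floor at the 75th percentile (155.6) moved 3, all of Sesn2, whose control signal lies under it.

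Some counts of genes at least 2-fold apart moved by over 1.5 times. Irradiated coculture against control had 1 higher after median centring, and live coculture against control 1 after median centring and 1 with the floor at the 75th percentile. With the mean over probe sets, 2 were higher in the irradiated coculture and 1 in the live coculture than in conditioned medium, and in the comparison of live coculture with conditioned medium 0 were lower. At 1.5-fold, 1 was higher in the irradiated than in the live coculture, 1 lower in live coculture against control, 2 higher in conditioned medium against control, and 2 higher in the irradiated and 1 in the live coculture than in conditioned medium. For the 61 other target genes, the floor at the 75th percentile left 1 higher and 0 lower between the cocultures. The median of the mitotic list between the cocultures ranged from -0.40 to -0.25. Median centring moved the median of all genes above the floor by -0.12 for live coculture and -0.11 for conditioned medium against control. Leaving out a replicate was not possible with 1 array per condition, and no paired analysis was possible because each group has 1 sample.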

Other observations

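Sesn2 and Btg2 also belong to stress programmes outside p53, and these differed from each other on the same arrays. Of 19 measured genes of the integrated stress response, the program that ATF4 drives when amino acids run short, 1 was at least 2-fold higher and 3 were lower in the irradiated than in the live coculture. Among all genes 0.671% were 2-fold apart in either direction between the cocultures. Asns, the asparagine synthetase gene, had signals of 126.5 in the irradiated coculture, 394.7 in the live coculture, 196.2 in conditioned medium and 150.6 in the control (3.12-fold lower in the irradiated than in the live coculture), and its other probe set had the same direction. Mthfd2, a mitochondrial enzyme of folate metabolism, was 2.05-fold lower and Phgdh, the first enzyme of serine synthesis, 2.01-fold lower. Sesn2 ran the other way, 1.35-fold higher in the irradiated coculture, as did Ddit4. Against the control the list had a median log2 ratio of 0.24 in the irradiated and 0.78 in the live coculture. Of the 19 genes, 4 and 7 were at least 2-fold higher, where 3.48% and 3.37% of all genes were. In the other direction, 1 was at least 2-fold lower in the irradiated coculture and 0 in the live coculture. After median centring 1 gene of the list, against 3, was 2-fold lower in the irradiated than in the live coculture.

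Among 19 immediate early genes, which growth factor and stress signals induce within a short time and which include Btg2, 12 were at least 2-fold above the control in the irradiated and 11 in the live coculture, with none 2-fold below it in either. The share of all genes that were 2-fold above it was 3.48% in the irradiated and 3.37% in the live coculture. Fosb was 7.03-fold higher in the irradiated and 5.94-fold higher in the live coculture, and Dusp1, a phosphatase of MAP kinases, 5.42-fold and 5.05-fold. Btg2 was under 2-fold in both. Nr4a1, an orphan nuclear receptor, and Egr3, a zinc finger factor, were 2.12-fold and 2.07-fold lower in the irradiated than in the live coculture, but another probe set of Egr3 gave 0.27 on the log2 scale, the other way. With median centring, and with the mean over probe sets, 1 of the list, against 2, was 2-fold lower. No explanation for these patterns was tested.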
